A study of Mus musculus with 11 samples.

Results

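The genes described here are 28 genes of cholesterol synthesis and of its control by the transcription factor SREBP2, taken by gene symbol from a table of 45777 mouse genes. They comprised 20 enzymes of sterol synthesis, from Acat2 at the first condensation of acetyl-CoA to Dhcr7 at the last reduction. Counted among the 20 was Ggps1, which makes geranylgeranyl diphosphate on a side branch. The remaining genes were 5 of the SREBP control circuit (Srebf2, Srebf1, Insig1, Insig2 and Scap), the sterol carrier Stard4, and 2 enzymes that supply substrate, Acly and Aacs. The 28 genes were chosen by their place in the pathway, with the IMQ and tissue comparisons of these same libraries already known. The counts of genes below are therefore a description. All 28 were found, all were protein-coding, and their lowest count in any library was 594, so that none was lost to the filter on low counts. In BALB/c mice aged 8 to 10 weeks, 62.5 mg of a cream holding 5% imiquimod (IMQ), an agonist of the endosomal receptor TLR7 that causes a psoriasis-like dermatitis, or vehicle cream was put on shaved skin daily for 5 to 8 days. RNA-seq was made of skin from 3 vehicle mice (libraries 1 to 3) and 3 IMQ mice (libraries 4 to 6), and of small intestine from 3 vehicle mice (libraries 7 to 9) and 2 IMQ mice (libraries 10 and 11). The labels do not say how many days each mouse was treated, or whether skin and intestine came from the same mice.

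Cholesterol is built from acetyl-CoA through mevalonate, isoprenoid diphosphates, squalene and lanosterol. SREBP2, made from Srebf2, switches on most genes of this route when membranes of the endoplasmic reticulum run low in sterol: SCAP then carries SREBP2 to the Golgi, where it is cleaved, and the INSIG proteins hold SCAP back when sterol is plentiful. In skin the route supplies the permeability barrier and sebum, and in the small intestine it runs beside the uptake of dietary cholesterol by enterocytes.

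Library totals lay between 44995414 and 58526384 counts. Vehicle skin library 2 stood apart: the summed level of 8 enterocyte markers was 200.1 FPKM in it, against 0.0412 and 0.0894 in the other vehicle skin libraries, and the sum of 14 hair follicle markers was 10.2 FPKM, against 689 and 1112. Enterocyte markers were also above the other libraries in IMQ skin libraries 4 and 5, at 4.23 and 5.33 FPKM, against 0.0476 in library 6. The calls in skin, of the 28 genes and of the neighbouring genes named, are therefore given with and without library 2. In every library the markers of the labelled tissue were present: enterocyte markers summed to between 9950 and 19800 FPKM in the intestinal libraries and basal keratinocyte markers to between 2640 and 6370 FPKM in the skin libraries. Because these were whole tissues, fewer cells of a type and less RNA per cell cannot be told apart, and the p-values measure the spread between these libraries alone.

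The promoters of 6 of the genes that turn up in the results are shown. Marked in them are letters through which SREBP2 and its partner NF-Y are known to act. By the patterns marked, Hmgcs1, Srebf2 and Msmo1 hold both kinds of letters. Idi1 and Cyp51 hold the CCAAT box alone, and Insig1 holds neither in the stretch shown. Sterol regulatory elements with letters other than TCACNCCA were not searched and are not marked, so their absence is not shown. RefSeq windows of the GRCm38.p6 build, from 250 bases before to 50 after a start, were found for 24 of the 28 genes (not for Fdps, Fdft1, Sqle and Stard4). The letters searched, on both strands, were the sterol regulatory element TCACNCCA, the CCAAT box CCAAT, the GC box GGGCGG and the E-box CACGTG. Each line gives the 200 bases before the start, 5′ to 3′ on the strand of the gene, with sterol regulatory element letters and CCAAT letters (ATTGG on the other strand) in capitals.
Hmgcs1, chr13:119690151-119690350, plus strand: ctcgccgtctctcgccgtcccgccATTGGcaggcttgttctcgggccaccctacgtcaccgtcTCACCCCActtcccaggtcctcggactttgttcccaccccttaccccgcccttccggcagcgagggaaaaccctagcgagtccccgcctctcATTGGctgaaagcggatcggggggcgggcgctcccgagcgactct
Srebf2, chr15:82147069-82147268, plus strand: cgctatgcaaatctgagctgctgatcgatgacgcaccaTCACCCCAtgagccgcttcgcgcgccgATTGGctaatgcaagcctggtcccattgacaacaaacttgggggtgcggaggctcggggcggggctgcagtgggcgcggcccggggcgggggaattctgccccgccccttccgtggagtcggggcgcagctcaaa
Msmo1, chr8:64733579-64733778, minus strand: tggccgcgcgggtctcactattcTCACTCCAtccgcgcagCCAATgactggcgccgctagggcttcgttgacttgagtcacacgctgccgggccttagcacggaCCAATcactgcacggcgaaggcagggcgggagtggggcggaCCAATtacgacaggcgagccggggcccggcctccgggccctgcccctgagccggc
Idi1, chr13:8885406-8885605, plus strand: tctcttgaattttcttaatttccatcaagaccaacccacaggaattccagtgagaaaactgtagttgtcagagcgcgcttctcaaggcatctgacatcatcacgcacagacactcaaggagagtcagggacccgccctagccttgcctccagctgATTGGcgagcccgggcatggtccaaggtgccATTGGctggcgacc
Cyp51, chr5:4104698-4104897, minus strand: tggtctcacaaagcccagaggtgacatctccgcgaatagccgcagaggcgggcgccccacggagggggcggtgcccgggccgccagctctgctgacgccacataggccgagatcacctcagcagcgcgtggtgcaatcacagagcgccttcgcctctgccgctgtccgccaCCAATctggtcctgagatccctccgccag
Insig1, chr5:28071212-28071411, plus strand: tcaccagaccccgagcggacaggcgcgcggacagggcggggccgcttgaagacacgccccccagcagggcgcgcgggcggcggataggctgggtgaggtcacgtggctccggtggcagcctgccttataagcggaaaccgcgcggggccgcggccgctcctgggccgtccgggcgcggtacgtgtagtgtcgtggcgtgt

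The sterol regulatory element letters were found in 3 of the 24 genes (12.5%): Hmgcs1, from position -137 to -130 before the start, Srebf2, from -162 to -155, and Msmo1, from -177 to -170. They were in 4.97% of the 27025 genes with a window and in 4.63% of the 12432 of those genes that were tested in both tissues. CCAAT letters were in 21 of the 24 genes (87.5%), against 41.1% of all genes and 42.3% of the tested genes. Among the promoters shown, Hmgcs1, Idi1 and Cyp51 had a CCAAT box within 50 bases before the start. It lay at positions -45 to -41 in both Hmgcs1 and Idi1, and -29 to -25 in Cyp51. Dhcr7, Hsd17b7, Insig2, Lbr, Mvd, Mvk, Nsdhl, Sc5d, Srebf1 and Tm7sf2 also had a CCAAT box within 50 bases before a start. The share of all genes with a CCAAT box this close was not counted. GC boxes were also in 21 of 24 genes, against 64.5% of tested genes, and the E-box was in 5 of 24 (20.8%), against 11% of tested genes. A gene with several starts has several windows and was counted once if any of them held the letters. These are matches of letters, not binding sites.

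**Figure D1:**
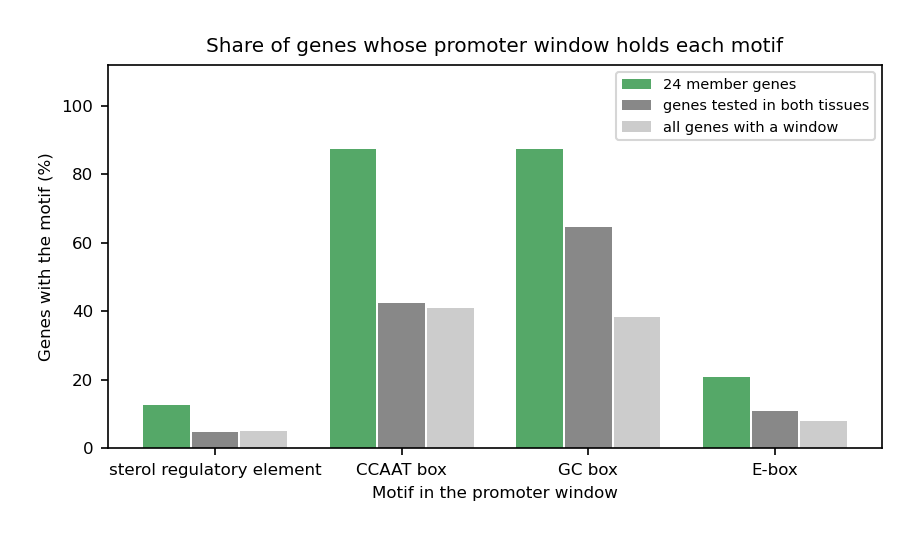
Share of genes (%) whose RefSeq promoter window holds each motif, for the 24 member genes with a window (green), the genes tested in both tissues (dark grey) and all genes with a window (light grey). The CCAAT box was in 87.5% of the member genes against 42.3% of tested genes, and the sterol regulatory element letters in 12.5% against 4.63%.

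Without IMQ, most genes of the route had a higher RNA level in skin than in small intestine. In vehicle skin Msmo1, a methylsterol oxidase of the late pathway, stood first with 170 ± 37.0 FPKM (SD, n = 3), followed by Hmgcs1, the synthase that makes HMG-CoA, with 144 ± 19.9 FPKM, and Fdps, the farnesyl diphosphate synthase, with 135 ± 2.99 FPKM. The ranges of these leading genes overlapped. Acly, which makes acetyl-CoA from citrate, came next with 99.9 ± 22.3 FPKM and overlapped neither Fdps above it nor Sqle below it (64.3 ± 10.1 FPKM). From Aacs (49.5 FPKM) down to Tm7sf2 (11.8 FPKM) every gene overlapped its neighbour in the order, and Ggps1, which diverts farnesyl diphosphate to geranylgeranyl diphosphate, stood alone at the bottom with 5.72 ± 0.393 FPKM.

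In vehicle small intestine the order began with Hmgcs1 (48.6 ± 5.68 FPKM), Fdps (45.8 ± 2.62 FPKM), Stard4 (44.2 ± 11.5 FPKM) and Msmo1 (33.0 ± 3.81 FPKM), and each neighbouring pair overlapped down to Cyp51 (14.3 ± 1.04 FPKM). The lowest levels belonged to Hsd17b7 (5.57 FPKM), Ggps1 (4.81 FPKM) and Lss, the lanosterol synthase (4.64 FPKM). The 28 genes summed to between 1195 and 1461 FPKM in the vehicle skin libraries and to between 527 and 559 FPKM in the vehicle intestinal libraries. On the log2(FPKM + 0.01) scale the median difference of all genes, intestine minus skin, was itself -0.45, and these sums are not corrected for it.

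In the fit over all 11 libraries (edgeR quasi-likelihood test, Benjamini-Hochberg adjustment over 18108 genes), 24 of the 28 genes differed between vehicle small intestine and vehicle skin, 20 lower and 4 higher in the intestine. Among all genes tested, 57% differed, 28.8% lower and 28.2% higher. The log2 difference was negative in 22 of the 28 genes and in 50.6% of all genes, with a median of -1.0 beside -0.012 over all genes. The widest gaps were in Acly (-1.98), Msmo1 (-1.93), Aacs (-1.90), which activates acetoacetate for lipid synthesis, and Lss (-1.73), each with an edgeR adjusted p of at most 1.3e-05. All 5 early mevalonate enzymes and all 3 enzymes from squalene to lanosterol were lower in the intestine.

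Stard4, a soluble carrier that moves sterol between membranes, went the other way. Its level was 31.3, 53.3 and 48.1 FPKM in the vehicle intestinal libraries and 20.1, 23.0 and 14.9 FPKM in the vehicle skin libraries. Every intestinal library lay above every skin library, and the log2 difference was 1.62 (edgeR adjusted p = 0.000337). The remaining genes called higher in the intestine were Sc5d (0.69), Tm7sf2 (0.55) and Ebp (0.41, adjusted p = 0.0493), all late-pathway enzymes. The direction of Ebp depended on the scaling: on the log2(FPKM + 0.01) scale, on which the median of all genes was -0.45, Ebp was at -0.034, and Sc5d and Tm7sf2 stayed positive but were not called. The genes not called were Srebf2, Insig1, Ggps1 and Lbr.

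**Figure D2:**
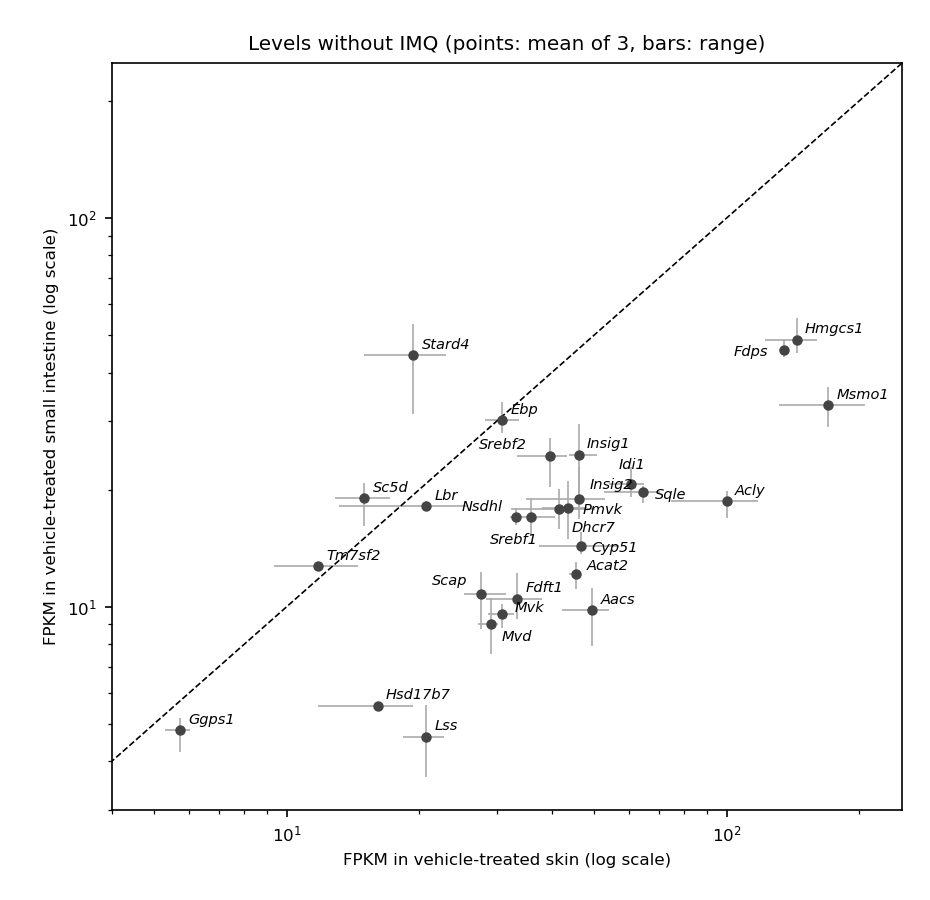
FPKM of each of the 28 genes in vehicle-treated skin (horizontal, log scale) and vehicle-treated small intestine (vertical, log scale). Points are means of 3 libraries, bars the range, and the dashed line marks equal FPKM. The line is not corrected for the lower median of all genes in the intestine on the FPKM scale. Most genes lie below the line, with Stard4 above it at 44.2 FPKM in the intestine against 19.4 FPKM in skin.

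The comparison of IMQ with vehicle in the small intestine concerns an organ away from the treated skin; a direct effect of IMQ that reached the gut and an effect of the inflamed skin cannot be told apart in it. There, the enzymes of sterol synthesis had lower values in the IMQ mice all along the route. All 20 enzymes had a negative log2 fold change, from -0.80 in Pmvk to -0.038 in Ebp, with a median of -0.40, where the median over all genes tested was -0.022 and 53.7% of genes were negative. Idi1, Sqle and Cyp51 passed the test (edgeR quasi-likelihood, adjusted over 19965 genes) and fell. They were 3 of the 28 genes, in a comparison in which 0.17% of all genes were called lower, 2.77% higher and 2.95% at all. An unadjusted p under 0.05 was reached by 12 of the 28 genes and by 12.3% of all genes. In 14 of the 20 enzymes both IMQ libraries lay below all 3 vehicle libraries; with Stard4 this made 15 of the 28 genes, where 13.9% of all genes separated in this way. These counts describe the list and are no test of it.

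Idi1, the isomerase that sets the balance of the basic isoprene units, had normalised counts of 3225, 3580 and 3456 in vehicle and 2000 and 2222 in IMQ intestine. The groups were far apart relative to their spread, and Idi1 fell by 38.3% (log2 fold change -0.70 ± 0.12 (SE), edgeR adjusted p = 0.0292). Sqle, the squalene epoxidase and one of the slow steps of the route, had 2987, 3058 and 3324 in vehicle against 1663 and 1970 in IMQ. It fell by 41.8% (-0.78 ± 0.13, edgeR adjusted p = 0.0247). Cyp51, which demethylates lanosterol, had 3499, 3681 and 3611 in vehicle against 2011 and 2448 in IMQ. It fell by 38.0% (-0.69 ± 0.13, edgeR adjusted p = 0.0411). In each of these genes IMQ library 10 was lower than IMQ library 11.

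The early mevalonate enzymes separated completely. Hmgcs1 had 9423, 10473 and 9458 normalised counts in vehicle and 6907 and 7793 in IMQ intestine, with a log2 fold change of -0.41 ± 0.14 that was not called (edgeR adjusted p = 0.246). Pmvk, the phosphomevalonate kinase, had the most negative value of all 28 genes, -0.80 ± 0.19, with vehicle counts between 1045 and 1502 and IMQ counts of 681 and 738 (edgeR adjusted p = 0.0932). In Acat2, Mvk and Mvd the IMQ libraries also lay below the vehicle libraries, at -0.32, -0.27 and -0.46, although in Mvd the gap was that between 805.0 and 805.3 normalised counts.

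Of the isoprenoid and squalene enzymes, Fdps (-0.49) and Fdft1, the squalene synthase (-0.42), separated, whereas Ggps1 (-0.064) and Lss (-0.39) overlapped. In the late pathway, Msmo1 stood at -0.51 ± 0.13 (edgeR adjusted p = 0.112), and Tm7sf2, Lbr and Nsdhl at between -0.42 and -0.28, all without overlap of the groups. Hsd17b7, Ebp, Sc5d and Dhcr7, which act toward the end of the route, overlapped and ranged from -0.26 in Dhcr7 to -0.038 in Ebp.

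**Figure D3:**
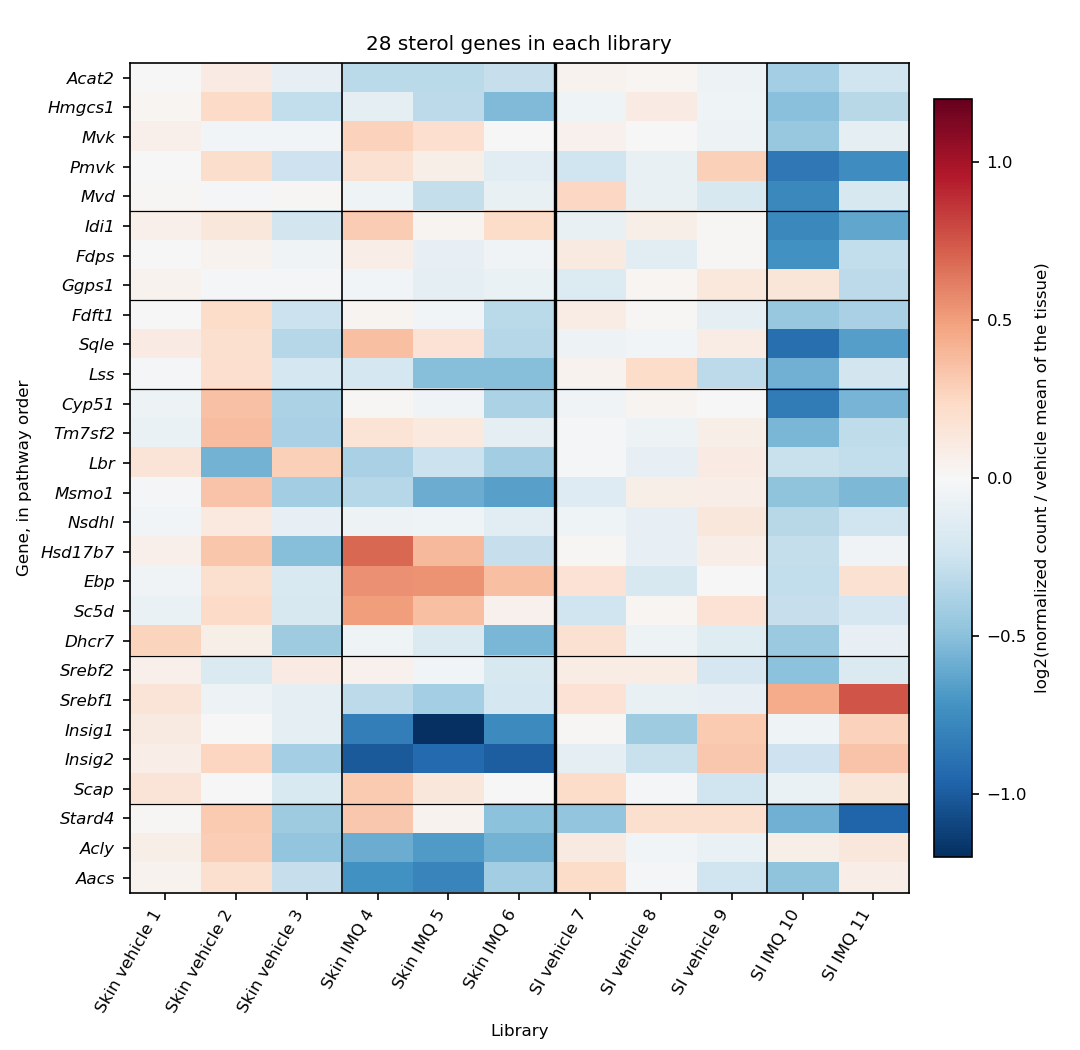
Each of the 28 genes (rows, in pathway order, with lines between functional groups) in each of the 11 libraries (columns); colour is log2 of the normalised count over the vehicle mean of the same tissue. The enzymes from Acat2 to Msmo1 are mostly blue in the 2 IMQ intestinal libraries, while in IMQ skin the deepest blue is in Insig1 and Insig2.

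In the control circuit no gene passed the test in the intestine (edgeR; 1 of the 5, Srebf1, had an unadjusted p under 0.05). Srebf2 had 7629, 7599 and 6237 normalised counts in vehicle and 5090 and 6354 in IMQ intestine, which overlap, and a log2 fold change of -0.32 ± 0.16 (edgeR adjusted p = 0.510). Srebf1, which encodes the SREBP form that favours fatty acid synthesis and is itself a target of the sterol sensor LXR, had 4806, 3997 and 3963 in vehicle and 5803 and 7166 in IMQ. Both IMQ libraries lay above all vehicle libraries, with a value of 0.61 ± 0.15 that was not called (edgeR adjusted p = 0.112).

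Insig1, a direct SREBP target in many cells, had 3831, 2825 and 4722 in vehicle and 3663 and 4608 in IMQ intestine, a difference of 0.12 ± 0.22 with the groups overlapping. Insig2, its partner under separate control, had 2705, 2442 and 3679 in vehicle and 2484 and 3718 in IMQ, a difference of 0.075 ± 0.23. Scap was at 0.039 ± 0.16. Stard4 had 9774, 15429 and 15421 in vehicle and 9076 and 6972 in IMQ intestine. Its IMQ libraries lay below all vehicle libraries, but vehicle library 7 was close to them, and the value of -0.75 ± 0.24 was not called (edgeR adjusted p = 0.226). Acly (0.10) and Aacs (-0.17) overlapped.

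Library by library, the median of the 20 enzymes against their vehicle mean was -0.014, -0.015 and 0.016 on the log2 scale in the vehicle intestinal libraries and -0.47 and -0.29 in IMQ libraries 10 and 11. In each IMQ library 19 of the 20 enzymes were below the vehicle mean, against 11, 11 and 8 in vehicle libraries 7, 8 and 9. The share of all genes below the vehicle mean was not computed for single libraries. Summed over all 28 genes, the level was 527 to 559 FPKM in vehicle and 409 and 441 FPKM in IMQ.

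The calls of Idi1, Sqle and Cyp51 were lost when any of libraries 8, 9, 10 or 11 was left out. Without library 7, 4 genes were called, Idi1, Sqle, Pmvk and Stard4. Over all genes, 588 were called in the main fit. That number was 801 without library 7, 397 without library 8 and 378 without library 9. In the 5 fits with a library left out, 19 or 20 of the 20 enzymes stayed negative. One fit of all 11 libraries called Idi1 and Pmvk only, and 662 of all genes. Cyp51 was also lost with no filter and on the log2(FPKM + 1) scale. DESeq2 called 6 genes, Msmo1 and Pmvk lower and Srebf1 higher beside Idi1, Sqle and Cyp51. It called 1206 of all genes.

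Cell type markers differed between the same intestinal groups. The 8 enterocyte markers summed to 9950 to 15200 FPKM in vehicle and 17800 and 19800 FPKM in IMQ, though only 3 of the 8 were higher and none was called. The 5 markers of the proximal small intestine summed to 1320 to 3850 FPKM against 5250 and 6590 FPKM, and the 3 of the distal part to 28.9 to 45.1 FPKM against 7.03 and 18.4 FPKM. All 5 Paneth cell, all 5 goblet cell and all 4 stem cell markers were lower in IMQ, of which 1 goblet cell marker was called. Stem cell marker sums were 280 to 360 FPKM against 203 and 231 FPKM. All 8 macrophage markers were higher in IMQ, 6 of them called, with sums of 135 to 204 FPKM in vehicle against 730 and 814 FPKM. None of the markers in these lists was at 0 in every library of a group. Their part in the lower sterol enzyme levels was not tested.

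In skin, where the cream was applied, Insig1 and Insig2 of the control circuit fell, and none of the 26 other genes passed the test (edgeR quasi-likelihood, adjusted over 20512 genes). The 2 of 28 genes called lower stand beside 2.69% of all genes called lower, 4.05% called higher and 6.74% in either direction. Of the 28 genes 9 had an unadjusted p under 0.05, as had 23.2% of all genes. The log2 fold change was negative in 19 and positive in 9, with a median of -0.09, and 51.5% of all genes were negative. In 8 genes all IMQ libraries lay below all vehicle libraries (13.3% of all genes did so), namely Acat2, Mvd, Ggps1, Srebf1, Insig1, Insig2, Acly and Aacs; in 1, Ebp, they lay above (15.1% of all genes).

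Insig1 had 7008, 6507 and 5991 normalised counts in vehicle skin and 3653, 2587 and 3833 in IMQ skin. The groups were well apart, and Insig1 fell by 48.4% (log2 fold change -0.95 ± 0.17, edgeR adjusted p = 0.0248). Insig2 had 6620, 7486 and 4739 in vehicle and 3120, 3288 and 3165 in IMQ skin, where the libraries were close to one another. It fell by 49.2% (-0.98 ± 0.17, edgeR adjusted p = 0.0254). Without vehicle library 2 Insig1 was at -0.95 and Insig2 at -0.83 (edgeR adjusted p = 0.0318 and 0.0267).

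The transcription factor genes themselves moved less. Srebf2 had 11291, 9657 and 11620 in vehicle and 11277, 10581 and 9509 in IMQ skin, which overlap (-0.054 ± 0.13). Srebf1 had 9183, 7903 and 7654 in vehicle and 6618, 6198 and 7110 in IMQ skin. The groups did not overlap, and the value of -0.31 ± 0.12 was not called (edgeR adjusted p = 0.185). Scap was at 0.16 ± 0.14.

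The enzymes of sterol synthesis in skin were split, 12 negative and 8 positive, with a median of -0.077, and none was called at an adjusted p under 0.05 by edgeR; 4 of them had an unadjusted p under 0.05, and DESeq2 called 1, Ebp, higher. Hmgcs1 had 27293, 31525 and 21984 in vehicle and 24783, 21696 and 18695 in IMQ skin (-0.31 ± 0.19). Sqle had 10108, 10786 and 7478 in vehicle and 12176, 10654 and 7438 in IMQ skin (0.093 ± 0.22). In both genes the groups overlapped.

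The most positive enzyme was Ebp, the sterol isomerase, with 2799, 3290 and 2536 normalised counts in vehicle and 4201, 4170 and 3704 in IMQ skin. All IMQ libraries were higher, with a value of 0.49 ± 0.13 (edgeR adjusted p = 0.0750). Idi1 had 9703, 10191 and 7994 in vehicle and 11468, 9526 and 10846 in IMQ skin (0.19 ± 0.14), and Cyp51 had 10438, 13901 and 8399 against 11018, 10621 and 8382 (-0.12 ± 0.21). Neither separated. Msmo1 (-0.52 ± 0.21) and Lss (-0.40 ± 0.15) had the most negative values among the enzymes, also with overlap.

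The substrate enzymes Acly and Aacs were lower without overlap. Acly had 24840, 29104 and 17041 in vehicle and 15648, 14759 and 15944 in IMQ skin (-0.61 ± 0.21, edgeR adjusted p = 0.133), and Aacs was at -0.64 ± 0.17 (edgeR adjusted p = 0.0728). Stard4 had 5594, 6871 and 4103 in vehicle and 6909, 5687 and 3921 in IMQ skin and was at -0.0043 ± 0.26 on the log2 scale, with the groups overlapping.

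Part of the spread in skin lay among the vehicle libraries. The median of the 28 genes against the vehicle mean was 0.029, 0.19 and -0.21 in vehicle libraries 1, 2 and 3, and -0.0095, -0.073 and -0.27 in IMQ libraries 4, 5 and 6. Without vehicle library 2 the genes called were Insig1, Insig2, Ebp (0.60, edgeR adjusted p = 0.0268) and Lbr (-0.57, 0.0248), and in Lbr library 2 had 2619 normalised counts, against 4318 and 4737 in the other vehicle libraries. Without vehicle library 3 they were Insig1, Insig2, Aacs and Acly. None was called without library 1, 4 or 5, and Insig1 alone without library 6. Over all genes, 1382 were called in the main fit. That number was 2521 without library 2 and 934 without library 3. It was 325, 468, 258 and 687 without libraries 1, 4, 5 and 6.

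Markers of other skin cells were compared in the same libraries. All 8 sebaceous gland markers were lower in IMQ skin, 3 of them called, with sums of 657 to 1260 FPKM in vehicle and 399 to 690 FPKM in IMQ, which overlap. Of 8 adipocyte markers 7 were lower, none called, with sums of 854 to 1290 FPKM against 697 to 857 FPKM, which overlap as well. Activated keratinocyte markers summed to 587 to 857 FPKM against 2660 to 6220 FPKM, and neutrophil markers to 13.6 to 14.7 FPKM against 7040 to 8590 FPKM. Hair follicle marker sums were 8.71 to 11.7 FPKM in IMQ skin, near the 10.2 FPKM of vehicle library 2, and Krt34 of that list was at 0 in all IMQ skin libraries. Their part in the values of Insig1, Insig2, Acly and Aacs was not tested.

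**Figure D4:**
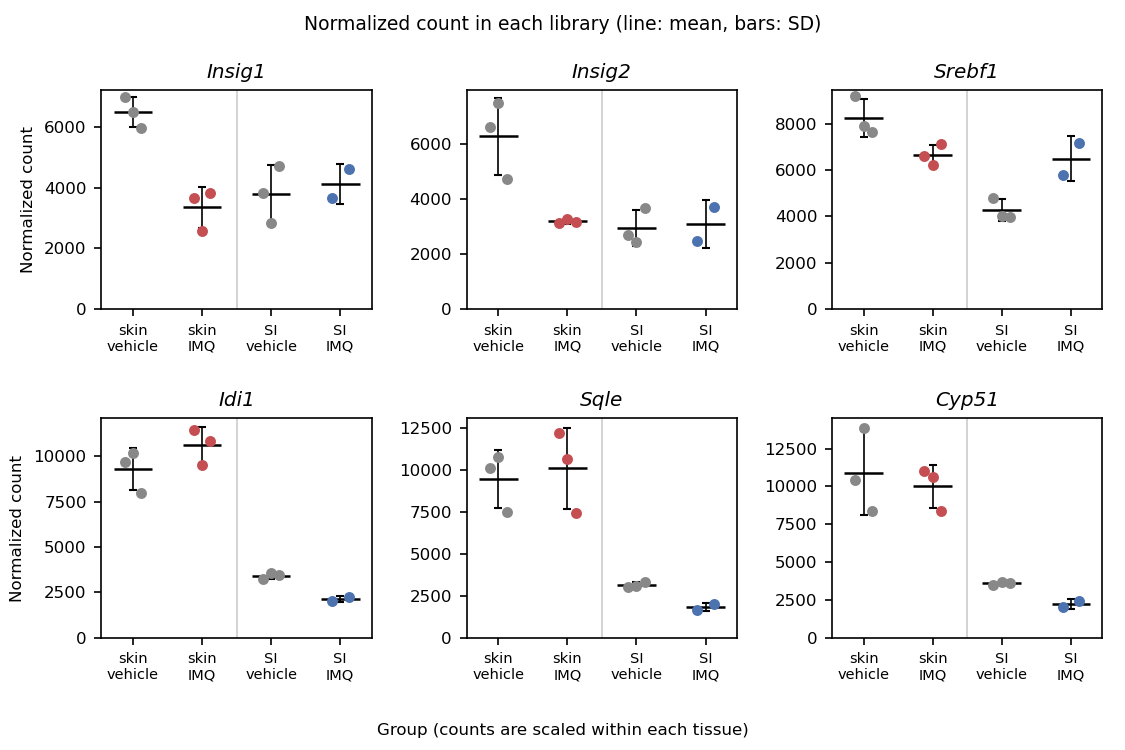
Normalised count (vertical, from 0) of Insig1, Insig2, Srebf1, Idi1, Sqle and Cyp51 in each library (points) with the group mean (line) and SD (bars); vehicle is grey, IMQ skin red and IMQ small intestine blue. Insig1 and Insig2 do not overlap between vehicle and IMQ in skin and overlap in small intestine, and the reverse holds for Idi1, Sqle and Cyp51.

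The response to IMQ differed between the tissues in 2 of the 28 genes when the difference itself was tested (edgeR quasi-likelihood test of the interaction over all 11 libraries); 2.55% of all 18108 genes passed this test, 1.7% with a higher and 0.856% with a lower response in intestine. An unadjusted p under 0.05 was reached by 10 of the 28 genes and by 16.9% of all genes. Idi1 was at 0.19 in skin and at -0.70 in small intestine, and the difference of the responses was -0.88 ± 0.19 (edgeR adjusted p = 0.0410). Srebf1 was at -0.31 in skin and 0.61 in small intestine, and the difference was 0.93 ± 0.20 (edgeR adjusted p = 0.0369).

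For the other genes the test of the difference was not passed. It was 1.09 ± 0.30 in Insig1 (edgeR adjusted p = 0.0951), 1.06 ± 0.32 in Insig2 (0.122), -0.84 ± 0.26 in Pmvk (0.122), -0.86 ± 0.29 in Sqle (0.161) and -0.55 ± 0.28 in Cyp51 (0.364). Msmo1 had almost the same value in both tissues, -0.52 in skin and -0.51 in intestine, with a difference of 0.027 ± 0.28. In 16 of the 20 enzymes the difference was negative, that is lower in intestine than in skin, as it was in 47.2% of all genes.

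Both called differences missed the threshold under 2 other filters on low counts (edgeR adjusted p = 0.0626 and 0.0834 for Idi1, 0.0567 and 0.0726 for Srebf1). Without vehicle skin library 2 both were called, together with Pmvk, in a fit that called 1072 of all genes. The main fit called 462 of all genes. Leaving out another skin library or a vehicle intestinal library gave 200 to 535 calls over all genes. Of the 11 fits with a library left out, Idi1 was called in 1 and Srebf1 in 4.

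**Figure D5:**
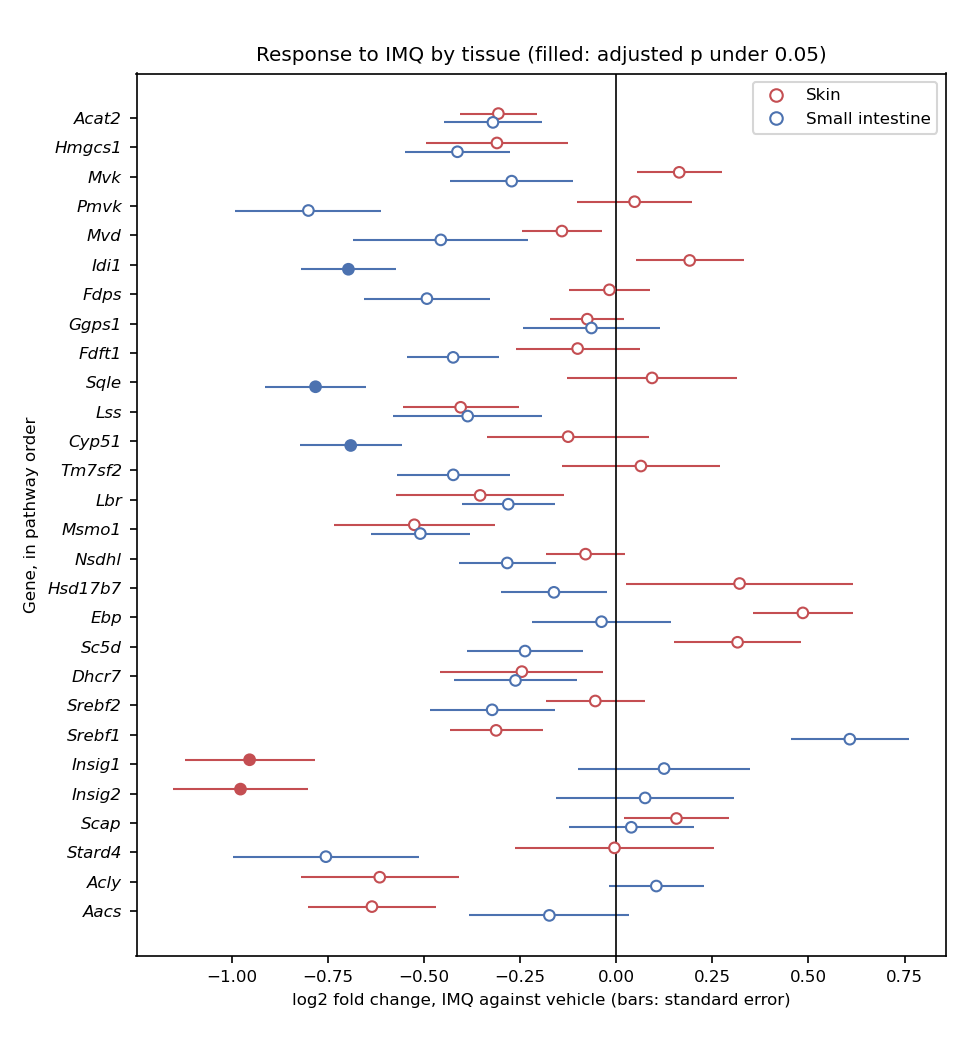
Log2 fold change of IMQ against vehicle for each of the 28 genes in skin (red) and small intestine (blue), with the standard error as bars; filled points have an adjusted p under 0.05. The blue points of the 20 enzymes all lie left of 0, and in skin only Insig1 and Insig2 are filled.

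Genes next to the route were counted in lists; among all genes, 6.74% were called and 51.5% were negative in skin, and 2.95% and 53.7% in the intestine. In skin, 15 of 16 genes of the SREBP1 and fatty acid branch were negative, with a median of -0.58, and 2 were called: Elovl6, a fatty acid elongase, with 67635, 68276 and 40151 normalised counts in vehicle and 13799, 9054 and 15456 in IMQ (-2.20 ± 0.30, edgeR adjusted p = 0.0107), and Gpam, which starts triglyceride synthesis (-0.81, 0.0402). In the intestine 12 of the 16 were negative, with a median of -0.24, and edgeR called none; 4 had an unadjusted p under 0.05.

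The list of LXR and cholesterol efflux genes, LXR being a sensor of oxysterols, held the largest changes among the neighbouring genes named. Abcg1, a cholesterol exporter, had 148, 270 and 282 normalised counts in vehicle and 4065 and 3518 in IMQ intestine, a rise of 4.02 ± 0.27 on the log2 scale (edgeR adjusted p = 0.000417). It was the only one of 12 called there. In skin Abcg1 was at 1.04 (edgeR adjusted p = 0.0592), with all IMQ libraries above vehicle. Of the 10 tested in skin, 7 were positive and 3 were called. Cyp7b1, an oxysterol hydroxylase (3.07, edgeR adjusted p = 0.00420), and Ch25h, which makes an oxysterol (1.30, 0.0458), were called higher. Ch25h was at a low level, with means of 0.64 FPKM in vehicle and 1.54 FPKM in IMQ skin. The phospholipid enzyme Lpcat3 was called lower (-0.80, edgeR adjusted p = 0.0492).

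Among 14 genes of cholesterol uptake, transport and esterification, 11 were positive in the intestine and 3 were called, all higher. Scarb1, the receptor for HDL, was at 1.53 (edgeR adjusted p = 0.0146), and Stard5, a sterol carrier, at 1.39 (0.00804). Lipa, the lysosomal lipase that frees cholesterol from its esters, was at 1.23 (0.0397). In skin 10 of the 14 were positive, and Lipa was the only gene called (0.63, edgeR adjusted p = 0.0442). The macrophage marker sums given above rose in the same intestinal libraries, and in skin they were 235 to 373 FPKM in vehicle and 638 to 867 FPKM in IMQ. Their part in these values was not tested.

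Of 11 genes of SREBP processing and sterol-regulated degradation, edgeR called 1 in skin, Paqr3, a Golgi protein that binds SCAP (-1.29, adjusted p = 0.0258), and none in the intestine, where none had an unadjusted p under 0.05. Of 14 genes of the non-sterol isoprenoid branch, edgeR called 1 in skin, Nus1, a subunit of the enzyme for dolichol synthesis (0.56, adjusted p = 0.0336), and none in the intestine, again with none at an unadjusted p under 0.05. The single calls in these lists are near the share called among all genes. The medians of both lists lay between -0.063 and 0.017 in both tissues.

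Few of these calls on neighbouring genes held in every fit with a library left out. In skin Cyp7b1 was called in all 6 such fits and Elovl6 in 5, its call being lost without library 5. Gpam was called in 2, without library 2 or 3, Ch25h, Paqr3 and Nus1 in 1 each, without library 2, and Lpcat3 in 1, without library 3. Lipa was called in none of the 6 in skin, and 6 of 9 other settings lost its call too. Without vehicle library 2 Lipa was at 0.59 (edgeR adjusted p = 0.0604) and Lpcat3 at -0.70 (0.0695). In the intestine Abcg1 was called in all 5 fits, Stard5 in 4, not without library 10, and Scarb1 and Lipa in 2 each, not without library 9, 10 or 11.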

How the data were processed

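Poly(A) RNA from 11 samples of mouse skin or small intestine was sequenced as stranded paired reads. The processing notes of the submitters name bcl2fastq 2.20.0, Trimmomatic, HISAT2 2.1.0 and StringTie 2.1.3b with mm10; how reads were assigned to genes, with which strand setting and multimapping rule, is not given in the sources used here. The authors deposited read counts per gene (used in all main tests) and FPKM and TPM values per gene in 1 table. The deposited FPKM, which divide by transcript length and library size, gave levels between genes and an alternative scale; the deposited TPM values were not used further.

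A gene was tested where no library of the fit had a count under 1. Counts were scaled by RLE and tested with edgeR 4.0.16 (quasi-likelihood, R 4.3.3) within each tissue, and in 1 fit of all libraries for the interaction and for the tissues, with p-values adjusted by Benjamini and Hochberg across every tested gene and a threshold of 0.05. "Called" means past it; normalised counts are scaled within a tissue. The tests were also run on simulated counts with the same spread for every gene. That run does not show how the tests behave in these libraries. All 28 genes matched RefSeq positions. Values in every library were given for called members and always for Srebf2, Srebf1, Insig1, Insig2, Hmgcs1, Sqle and Stard4; of the genes in the neighbouring lists, up to 8 per tissue past the threshold were named. Others were added for comparison after their values were seen. The members and lists were chosen with earlier results of these data known, so their counts are no test. One list of further sterol genes is not reported here. Alternatives were TMM and upper-quartile scaling, DESeq2 1.42.0, limma-voom (limma 3.58.1), other filters, limma on log2(FPKM + 0.01) and log2(FPKM + 1), 1 fit of all libraries and leaving out each library.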

Additional observations from a re-analysis of the deposited data

Results flagged for a closer look

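The response to IMQ differed between small intestine and skin, by the edgeR test of that difference, in 2 of the 28 genes and in 5 genes of the neighbouring lists. The values are the response in intestine minus that in skin on the log2 scale, with its SE and adjusted p. Among the 28 genes, Idi1 differed by -0.88 ± 0.19 (edgeR adjusted p = 0.0410) and Srebf1 by 0.93 ± 0.20 (0.0369). The difference was 2.99 ± 0.41 in Abcg1 (edgeR adjusted p = 0.00523), 1.81 ± 0.40 in Elovl6 (0.0422) and 1.96 ± 0.43 in Paqr3 (0.0419). It was -2.98 ± 0.38 in Cyp7b1 (edgeR adjusted p = 0.00371) and -0.74 ± 0.16 in Nus1 (0.0369). Paqr3 was at a low level in the intestine, with means of 45.1 normalised counts in vehicle and 72.3 in IMQ (0.19 and 0.28 FPKM). Cyp7b1 was low there too, at 0.72 FPKM in vehicle and 0.76 FPKM in IMQ. Abcg1 and Cyp7b1 were called in all 11 fits with a library left out and in all 8 other settings. Of the 11 fits, Srebf1 was called in 4, Elovl6 in 3, Paqr3 and Nus1 in 2 each and Idi1 in 1. Of the 8 other settings, Idi1, Srebf1 and Elovl6 were called in 6 each, Nus1 in 5 and Paqr3 in 4. Without vehicle skin library 2 all 7 were called, in a fit that called 1072 of all genes, against 462 in the main fit. No group held more than 3 libraries, and Dixon's test of a single value was not run.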

How the results depend on the processing

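Of the values of single genes over all alternatives, 1483 kept their direction and their side of the threshold, 155 kept the direction but lost the call, 24 gained a call and 29 changed sign. DESeq2 called 5 of the 28 genes in skin (edgeR 2), 6 in small intestine (3) and 5 for the difference of the responses (2). Over all genes it called 3030 in skin, 1206 in small intestine and 1281 for the difference, where edgeR called 1382, 588 and 462. With filterByExpr and with no filter, none of the 28 genes passed the test of the difference (0 called), while 348 and 301 of all genes did. Leaving out 1 library at a time gave 0 to 4 called genes in skin, 0 to 4 in small intestine, 0 to 3 for the difference and 22 to 24 between the vehicle tissues; without IMQ library 10 or 11 the remaining IMQ intestinal library was assumed to vary like the vehicle group. The median of the 28 genes in small intestine was -0.36 with upper-quartile scaling, -0.34 on the log2(FPKM + 0.01) scale, and -0.46 to -0.22 with a library left out. The cause of these shifts was not tested. Without vehicle library 2, 9 of the 20 enzymes were negative in skin, against 12 with it. Over all genes, the skin fits with a library left out called 258 to 2521.

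Signs changed for genes near 0. In skin Stard4 was at 0.0045 with TMM and at 0.0021 with filterByExpr, and with a library left out it ranged from -0.20 to 0.19, Pmvk from -0.069 to 0.17, Fdps from -0.065 to 0.023, Fdft1 from -0.22 to 0.026, Sqle from -0.061 to 0.27, Cyp51 from -0.29 to 0.089, Tm7sf2 from -0.10 to 0.29 and Srebf2 from -0.13 to 0.012. In small intestine Scap was at -0.021 with upper-quartile scaling, and with a library left out it ranged from -0.080 to 0.17, Ggps1 from -0.31 to 0.15, Ebp from -0.30 to 0.19, Insig1 from -0.052 to 0.31, Insig2 from -0.25 to 0.34 and Aacs from -0.49 to 0.090. Between the vehicle tissues Ebp was at -0.0345 and -0.0334 on the log2(FPKM + 0.01) and log2(FPKM + 1) scales, where the median of all genes was -0.45 and -0.25. That median was -0.15 with upper-quartile scaling. The sterol regulatory element letters with 1 further base, TCACNCCAC, were in 1 of 24 genes (Hmgcs1).

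No paired analysis was possible because the labels give the groups no shared replicate numbers. The lowest count of the 28 genes was 594, so that the precision rests on the 2 or 3 libraries a group more than on depth.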
